A study of Mus musculus with 6 samples.

Results

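Germinal centre B cells divide in splenic follicles, mutate their immunoglobulin genes and compete for help from T follicular helper cells. Bcl6 is the transcriptional repressor that makes this state possible in B cells and in T follicular helper cells, and it works with other transcriptional regulators, with receptors that hold the cells inside the follicle, and with the death receptor Fas, whose surface protein marks germinal centre B cells in mice. The genes described here are 10 such genes, Bcl6, Mef2b, Mybl1, Lmo2, Eaf2, S1pr2, Gna13, Gcsam, Fas and Nuggc, found by name among the 44794 gene loci with a name in the deposited table. Each of the 10 names occurred at 1 locus, and all 10 passed the filter of a mean value of at least 10 over the 6 libraries, as did 19227 named loci in all.

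RNA of whole spleen was sequenced in 3 Sle1b.IFNγR-/- samples and 3 B6.Sle1b samples. B6.Sle1b mice carry the lupus susceptibility interval Sle1b on the C57BL/6 background, and Sle1b.IFNγR-/- mice carry the same interval and lack the interferon-γ receptor; the labels do not say which receptor chain was deleted or whether a whole gene was removed. Both groups had been given imiquimod, which activates the RNA-sensing receptor TLR7, over 4 weeks with 3 treatments in each week, so the set holds no untreated and no C57BL/6 samples. No age or sex of the mice is given here. The labels do not say that every library came from its own mouse, and p-values thus measure only the spread between samples, which may be technical. The comparison asks how germinal centre transcripts of TLR7-stimulated, autoimmune-prone spleens differ when interferon-γ signalling is missing.

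The values are fragment counts per locus that the authors scaled between libraries, called scaled counts here. The libraries corresponded to between 4394299 and 5960906 fragments in Sle1b.IFNγR-/- and between 5531777 and 6349827 in B6.Sle1b. One library stood apart. The median level of 27 ribosomal protein genes, relative to the geometric mean of the 6 libraries, lay between 0.736 and 0.851 in Sle1b.IFNγR-/- and was 2.94, 0.705 and 0.920 in B6.Sle1b replicates 1 to 3. The named loci took between 19.2% and 19.8% of all scaled counts in Sle1b.IFNγR-/- and 27.0%, 17.5% and 20.0% in B6.Sle1b replicates 1 to 3. The median level of 10 B cell markers, among them Ms4a1, Cd79a and Pax5, lay between 0.886 and 0.931 in Sle1b.IFNγR-/- and was 1.75, 0.726 and 1.03 in the B6.Sle1b replicates, and none of the 10 was at 0 in any library. Differences are therefore also given without B6.Sle1b replicate 1. The receptor gene Ifngr1 had 43.7, 21.4 and 24.0 scaled counts in Sle1b.IFNγR-/- and 81.5, 34.5 and 63.7 in B6.Sle1b, and Ifngr2 had 5.25, 10.1 and 4.79 in Sle1b.IFNγR-/- and 13.2, 12.3 and 7.50 in B6.Sle1b. Both pairs of groups overlapped, and since the deleted part is not named the levels are no check of the genotypes.

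Promoter sequences of the genes are shown first because interferon-γ signalling acts on genes through the gamma-activated site, TTCNNNGAA, and because Bcl6 carries more matches to these letters than any other of the genes with a window. RefSeq windows on GRCm38.p6, from 250 bases before to 50 bases after an annotated start, were matched for 7 of the 10 genes and gave 10 windows. The letters TTCNNNGAA, which read the same on both strands, were in 4 of the 10 windows and in 8.3% of all 32851 windows of that length. Both Bcl6 windows are among the 4, so the share by window is not a share by gene. Bcl6 has one window at its upstream start (chr16:23988803-23989102, minus strand) and one at a start inside the gene (chr16:23981234-23981533, minus strand). The Fas window (chr19:34290409-34290708, plus strand) is shown beside them, and capitals mark the matches.
Bcl6 upstream start: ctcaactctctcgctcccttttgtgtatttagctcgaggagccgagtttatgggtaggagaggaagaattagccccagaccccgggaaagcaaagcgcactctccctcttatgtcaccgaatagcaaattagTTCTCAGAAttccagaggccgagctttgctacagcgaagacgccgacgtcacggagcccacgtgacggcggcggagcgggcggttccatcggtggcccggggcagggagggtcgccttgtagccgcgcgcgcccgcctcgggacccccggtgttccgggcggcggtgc
Bcl6 downstream start: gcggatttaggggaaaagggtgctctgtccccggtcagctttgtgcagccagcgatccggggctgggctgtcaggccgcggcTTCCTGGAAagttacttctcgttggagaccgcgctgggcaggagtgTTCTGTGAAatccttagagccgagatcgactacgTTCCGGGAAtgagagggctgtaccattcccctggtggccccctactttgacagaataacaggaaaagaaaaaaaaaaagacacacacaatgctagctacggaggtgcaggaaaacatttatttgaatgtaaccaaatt
Fas: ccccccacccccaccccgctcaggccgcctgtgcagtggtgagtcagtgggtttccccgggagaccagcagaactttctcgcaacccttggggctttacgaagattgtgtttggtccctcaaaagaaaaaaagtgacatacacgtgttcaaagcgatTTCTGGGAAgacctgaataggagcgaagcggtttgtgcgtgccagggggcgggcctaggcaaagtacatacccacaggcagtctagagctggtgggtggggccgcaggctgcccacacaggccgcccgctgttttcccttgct
The upstream Bcl6 window held 1 match, TTCTCAGAA, whose first base lay 118 bases before the start. The downstream window held 3, TTCCTGGAA, TTCTGTGAA and TTCCGGGAA, at 168, 122 and 88 bases before the start, and the first of them also fits TTCCTNGAA, a form of the site that BCL6 itself binds, which overlaps the gamma-activated site by definition and was searched on both strands. That second motif was in 1.59% of all windows. The Fas window held TTCTGGGAA 93 bases before the start, and an upstream window of Eaf2 held TTCTAAGAA 159 bases before its start. The core of the interferon-stimulated response element was in 3.44% of all windows on either strand and, among these genes, in the Gna13 window. A match of letters is a description of the sequence and does not show that a factor binds there. Whether a match bears on the levels of these genes was not tested.

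Bcl6 (locus XLOC_153243, chromosome 16, 23965052 to 23988852, GRCm38) had the largest difference between genotypes of the 10 genes. Its scaled counts were 35.9, 21.4 and 27.6 in Sle1b.IFNγR-/- replicates 1 to 3 and 95.8, 37.8 and 82.5 in B6.Sle1b replicates 1 to 3. All Sle1b.IFNγR-/- libraries lay below all B6.Sle1b libraries, but the nearest pair, Sle1b.IFNγR-/- replicate 1 and B6.Sle1b replicate 2, was almost level. Those values rest on 41 fragments (exact Poisson 95% interval 29.4 to 55.6, counting error only) and on 46 fragments (33.7 to 61.4). The means were 28.3 ± 7.27 in Sle1b.IFNγR-/- and 72.0 ± 30.4 in B6.Sle1b (SD, n = 3 each). The log2 difference, Sle1b.IFNγR-/- minus B6.Sle1b on the log2(value + 1) scale, was -1.25 (SE 0.40), with an unadjusted limma p of 0.0077 and a Benjamini-Hochberg adjusted p of 0.9998 over all 19227 loci. Bcl6 therefore did not pass the threshold of 0.05. The added 1 makes differences of genes with low values look smaller than they are.

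None of the 10 genes passed limma's adjusted p of 0.05, and 0% of all loci tested passed it. At an unadjusted p under 0.05, Bcl6 alone passed among the 10, and 596 loci passed in all, 2.08% of loci with lower and 1.02% with higher values in Sle1b.IFNγR-/-. Bcl6 was also the 1 gene of the 10 whose groups did not overlap, with 5.19% of all loci not overlapping in that direction and 3.51% in the other. The log2 difference was below 0 for 8 of the 10 genes, against 58.1% of all loci, with a median of -0.29 against -0.08 over all loci. Without B6.Sle1b replicate 1 it was below 0 for 4 of the 10, against 48.3% of all loci, with a median of 0.16 against 0.02. Scaled to ribosomal protein genes, which moved the median of all loci to 0.51, it was below 0 for 2 of the 10, against 12.9% of all loci. In whole spleen, fewer germinal centre cells and less RNA per cell cannot be told apart.

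**Figure D1:**
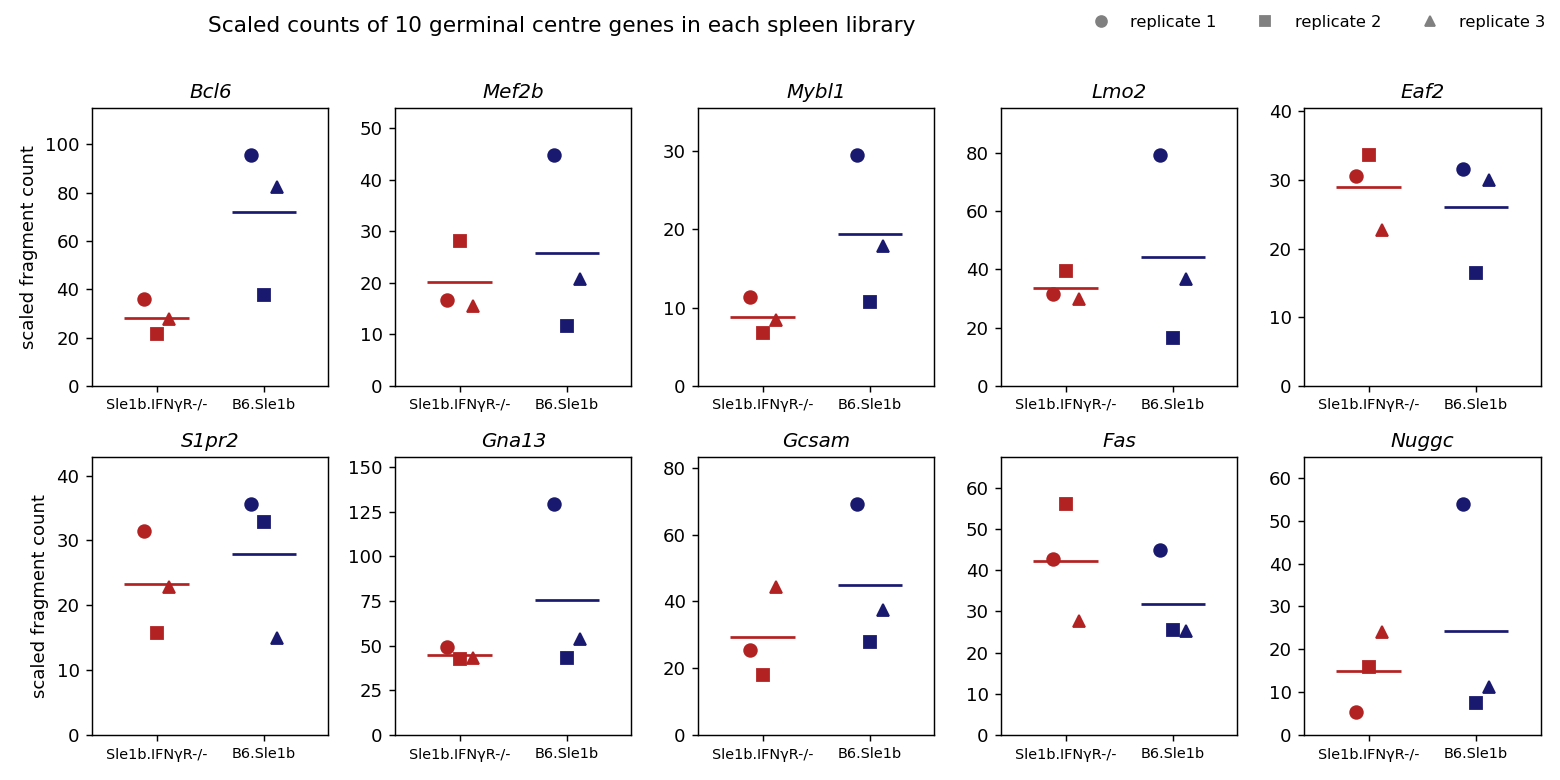
Scaled fragment counts (vertical axes, linear from 0) of the 10 genes in each library, with Sle1b.IFNγR-/- left and B6.Sle1b right; symbols are replicates and horizontal lines are group means. For Bcl6 the Sle1b.IFNγR-/- libraries sit between 21.4 and 35.9, below the B6.Sle1b libraries, and in 8 of the 10 panels B6.Sle1b replicate 1 is the highest point.

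The other transcriptional regulators did not share one pattern. Mybl1 (XLOC_001860, chromosome 1, 9667415 to 9700209), which encodes the Myb-family factor A-Myb of dividing germinal centre B cells in humans, had 11.4, 6.74 and 8.38 in Sle1b.IFNγR-/- and 29.6, 10.7 and 17.8 in B6.Sle1b. The groups overlapped only where Sle1b.IFNγR-/- replicate 1 exceeded B6.Sle1b replicate 2, and the log2 difference was -0.97 (SE 0.56, limma adjusted p = 0.9998), or -0.62 without B6.Sle1b replicate 1. The gene is at the low end of what was measured, at 6 to 29 fragments per library. Its mean of 8.83 in Sle1b.IFNγR-/- lay under the filter of 10, which it passed through B6.Sle1b.

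Mef2b, a MADS-box factor that activates BCL6 in human germinal centre B cells, had 16.6, 28.1 and 15.6 in Sle1b.IFNγR-/- and 44.8, 11.5 and 20.6 in B6.Sle1b. The B6.Sle1b replicates held both the highest and the lowest value, so that the groups overlapped fully, with a log2 difference of -0.18 (SE 0.50). Its locus (XLOC_356970, chromosome 8, 70139711 to 70167488) also carries the name of the neighbouring gene 2310045N01Rik, and fragments of the 2 genes were counted together. Lmo2 (XLOC_210310, chromosome 2, 103957986 to 103981878) encodes a LIM-domain adaptor of transcription complexes that marks germinal centre B cells in humans and is also used by erythroid and endothelial cells. It had 31.5, 39.3 and 29.9 in Sle1b.IFNγR-/- and 79.5, 16.4 and 36.6 in B6.Sle1b, with B6.Sle1b again spanning the whole range. The summed value of 10 erythroid and endothelial markers lay between 435 and 550 in Sle1b.IFNγR-/- and was 1459, 347 and 545 in B6.Sle1b replicates 1 to 3, in the same order of replicates as Lmo2 within B6.Sle1b. Summed B cell, T cell, myeloid, proliferation and ribosomal protein genes had that order too, so it is not particular to Lmo2 or these markers. The part of erythroid and endothelial cells in the Lmo2 values was not tested.

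Eaf2 (XLOC_153342, chromosome 16, 36792884 to 36875003), an ELL-associated elongation factor that promotes death of germinal centre B cells in mice, had 30.6, 33.7 and 22.8 in Sle1b.IFNγR-/- and 31.6, 16.4 and 29.999 in B6.Sle1b. The groups overlapped, and the log2 difference was 0.19 (SE 0.39).

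Among the genes that keep cells inside the follicle, S1pr2 (XLOC_379495, chromosome 9, 20962361 to 20976781) encodes the sphingosine-1-phosphate receptor that stops germinal centre B cells from leaving. It had 31.5, 15.7 and 22.8 in Sle1b.IFNγR-/- and 35.7, 32.9 and 15.0 in B6.Sle1b, with both groups spanning nearly the same range. Gna13 (XLOC_053551, chromosome 11, 109362831 to 109401369) encodes the G protein subunit through which that receptor signals. It had 49.0, 42.7 and 43.1 in Sle1b.IFNγR-/- and 129, 42.7 and 53.4 in B6.Sle1b. Its difference rested on B6.Sle1b replicate 1, since the log2 difference was -0.56 (SE 0.39) with that library and -0.09 without it.

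Gcsam (XLOC_152795, chromosome 16, 45610380 to 45622867), an adaptor that slows the movement of germinal centre B cells in humans, had 25.4, 18.0 and 44.3 in Sle1b.IFNγR-/- and 69.3, 28.0 and 37.5 in B6.Sle1b. The groups overlapped, with a log2 difference of -0.60 (SE 0.43) that was -0.24 without B6.Sle1b replicate 1.

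Fas (XLOC_200322, chromosome 19, 34290666 to 34327772) went against the direction of Bcl6. It had 42.8, 56.2 and 27.6 in Sle1b.IFNγR-/- and 44.8, 25.5 and 25.3 in B6.Sle1b, so that all 3 Sle1b.IFNγR-/- libraries lay above B6.Sle1b replicates 2 and 3, though 1 of them by little. The groups overlapped, with means of 42.2 ± 14.3 in Sle1b.IFNγR-/- and 31.9 ± 11.2 in B6.Sle1b (SD, n = 3 each) and a log2 difference of 0.39 (SE 0.39), which was 0.65 without B6.Sle1b replicate 1 and 0.16 without Sle1b.IFNγR-/- replicate 2. Nuggc (XLOC_115019, chromosome 14, 65598546 to 65648531), a nuclear GTPase gene of germinal centre B cells, had 5.25, 15.7 and 24.0 in Sle1b.IFNγR-/- and 54.0, 7.40 and 11.2 in B6.Sle1b. It varied most within both groups, and its log2 difference was -0.37 (SE 0.72), or 0.44 without B6.Sle1b replicate 1.

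**Figure D2:**
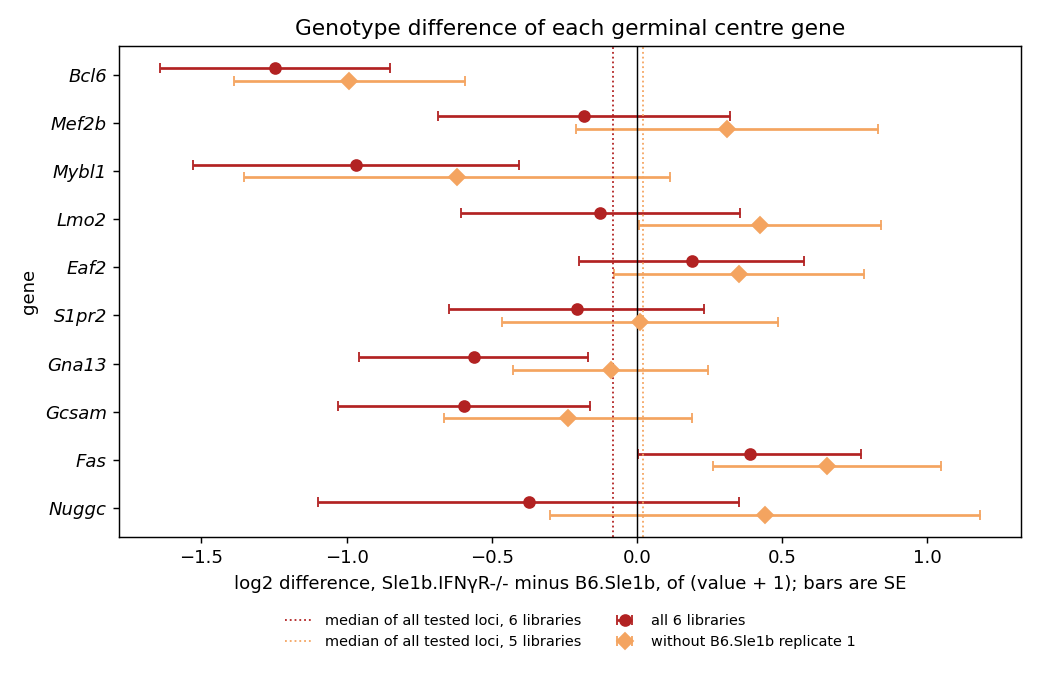
Log2 difference of each gene, Sle1b.IFNγR-/- minus B6.Sle1b on the log2(value + 1) scale (horizontal axis), with SE, from all 6 libraries (circles) and without B6.Sle1b replicate 1 (diamonds); dotted lines are the medians of all loci tested. Bcl6 lies at -1.25 and -0.99, while Mef2b, Lmo2, S1pr2 and Nuggc lie below 0 with all libraries and above 0 without that one.

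The spread within B6.Sle1b differed from gene to gene. B6.Sle1b replicate 1 was the highest of the 6 libraries for 8 of the 10 genes, as it was for 37.9% of all loci tested. The ratio of B6.Sle1b replicate 1 to replicate 2 was 7.30 for Nuggc, 4.83 for Lmo2, 3.90 for Mef2b and 3.03 for Gna13, and it was 1.92 for Eaf2, 1.76 for Fas and 1.08 for S1pr2. For Bcl6 it was 2.53. The ratio of highest to lowest library in Sle1b.IFNγR-/- was 1.15 for Gna13, 1.68 for Bcl6 and 4.57 for Nuggc.

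**Figure D3:**
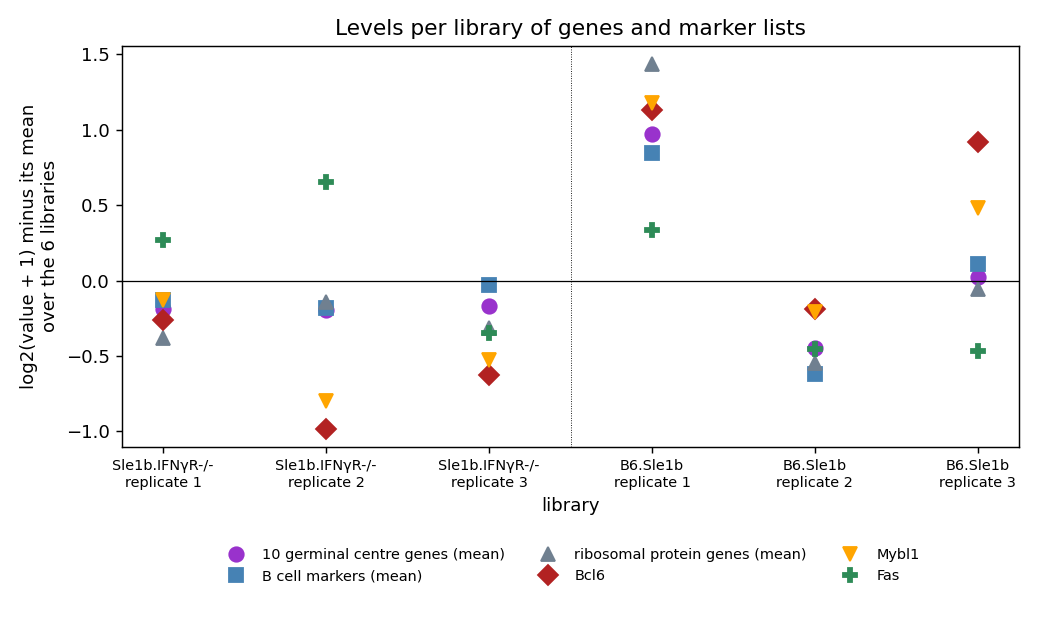
Log2(value + 1) minus its mean over the 6 libraries (vertical axis) for Bcl6, Mybl1, Fas, the 10 genes, 10 B cell markers and 27 ribosomal protein genes, with the Sle1b.IFNγR-/- libraries left and the B6.Sle1b libraries right. In B6.Sle1b replicate 1 the lists lie at 0.97, 0.85 and 1.44, and in B6.Sle1b replicate 3 Bcl6 lies above all 3 lists.

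Dividing by genes of the same library removes a level that depends on the genes chosen. For B6.Sle1b replicate 1 that level was 1.18 by tested loci above 0 in every library, 1.75 by B cell markers and 2.94 by ribosomal protein genes. The B cell markers did not all move alike, with 8 lower and 2 higher in Sle1b.IFNγR-/-. Relative to the mean log2 level of 10 B cell markers, Bcl6 lay at -0.90, -1.56 and -1.36 in Sle1b.IFNγR-/- and at -0.48, -0.33 and 0.05 in B6.Sle1b. The groups did not overlap. The difference was -1.02 on the log2 scale, with a two-sided exact permutation p of 0.1, the smallest that 3 against 3 libraries allow. It was -1.13 without B6.Sle1b replicate 1, and -0.78 with overlapping groups (exact p = 0.2) when a smaller set of 4 B cell markers was used. Mybl1 relative to the same 10 markers lay at -2.47, -3.09 and -2.97 in Sle1b.IFNγR-/- and at -2.14, -2.06 and -2.10 in B6.Sle1b, also without overlap. The groups of the other 8 genes overlapped on this scale, on which 1.73% of all loci did not overlap and were lower in Sle1b.IFNγR-/-.

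**Figure D4:**
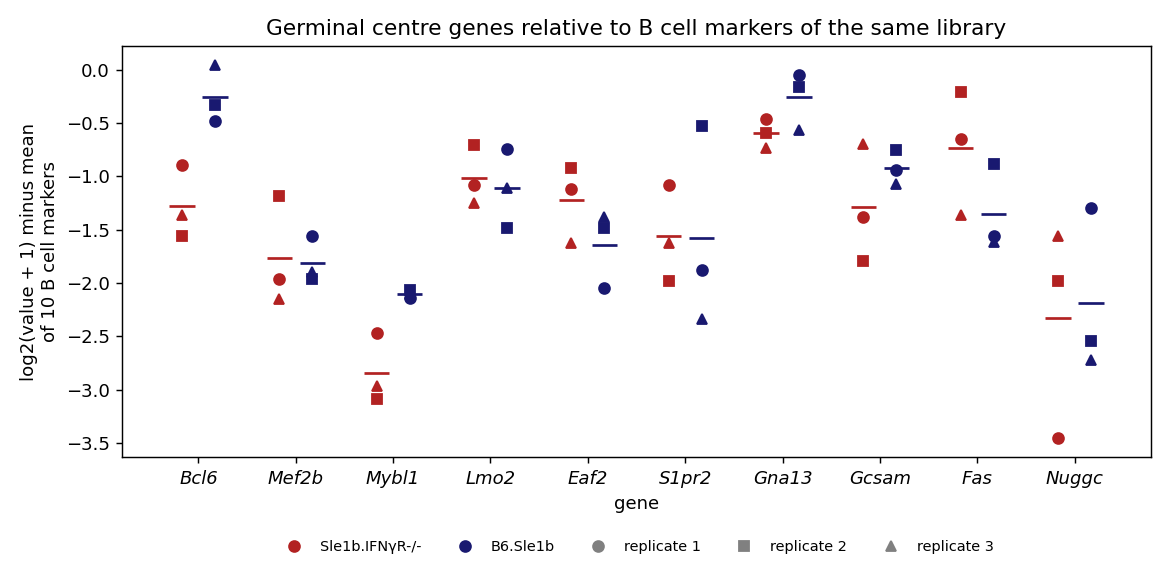
Log2(value + 1) of each of the 10 genes minus the mean of 10 B cell markers in the same library (vertical axis), with Sle1b.IFNγR-/- left of B6.Sle1b for each gene; symbols are replicates and lines are group means. Bcl6 averages -1.27 in Sle1b.IFNγR-/- and -0.25 in B6.Sle1b, and only Bcl6 and Mybl1 have groups that do not overlap.

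The make-up of the 10 genes within a library is free of any scaling between libraries. Of the fragments of the 10 genes, which numbered 320, 247 and 222 in Sle1b.IFNγR-/- and 603, 279 and 352 in B6.Sle1b, Bcl6 held 12.8%, 7.69% and 10.4% in Sle1b.IFNγR-/- and 15.6%, 16.5% and 25.0% in B6.Sle1b. The highest Sle1b.IFNγR-/- share, 12.8% (Wilson 95% interval 9.59 to 16.9), and the lowest B6.Sle1b share, 15.6% (12.9 to 18.7), had overlapping intervals. Fas held 15.3%, 20.2% and 10.4% in Sle1b.IFNγR-/- and 7.30%, 11.1% and 7.67% in B6.Sle1b. In Sle1b.IFNγR-/- Fas was thus the larger of the pair in replicates 1 and 2. It was level with Bcl6, at 23 fragments each, in replicate 3, while Bcl6 was the larger in all 3 B6.Sle1b libraries. This order is one of fragments and not of levels, since Bcl6 has 6.7 kb of exon sequence and Fas 2.06 kb. Mybl1 held 3.21% ± 0.82 in Sle1b.IFNγR-/- and 4.96% ± 0.39 in B6.Sle1b (SD, n = 3 each). Its nearest pair was 4.06% in Sle1b.IFNγR-/- replicate 1 (Wilson 95% interval 2.39 to 6.83) and 4.66% in B6.Sle1b replicate 2 (2.74 to 7.81). Both rested on 13 fragments, and their intervals overlapped. The shares of Bcl6 and Mybl1 did not overlap between groups, and 0.978% of all loci were lower without overlap when divided by the same fragments.

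**Figure D5:**
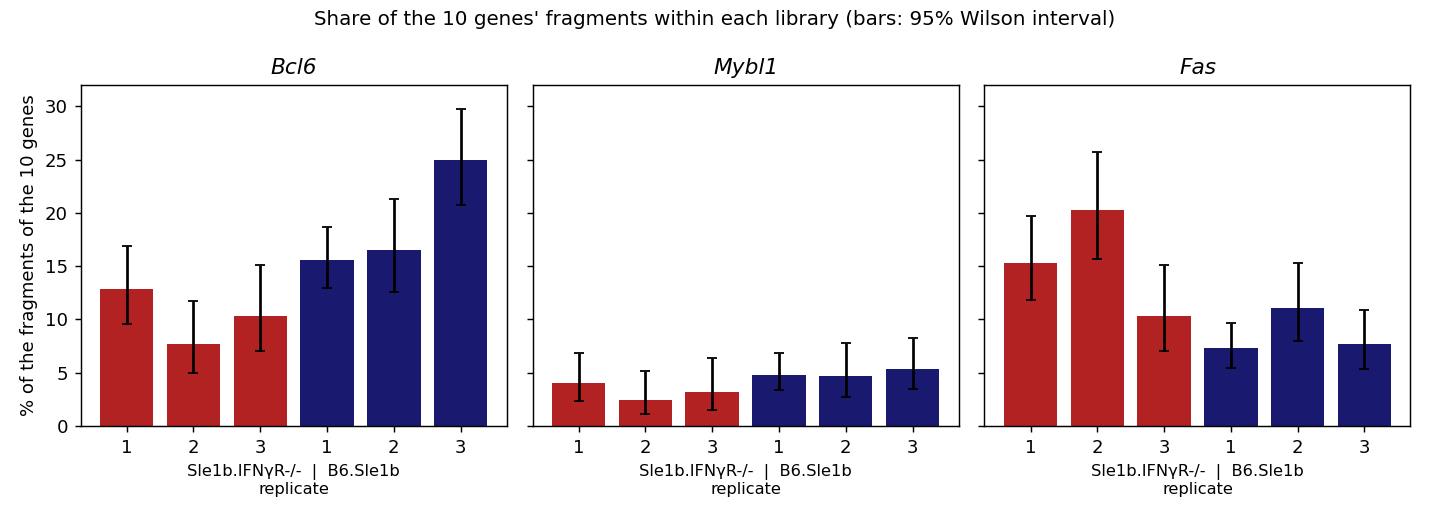
Share of the fragments of the 10 genes held by Bcl6, Mybl1 and Fas in each library (vertical axis, percent), with Sle1b.IFNγR-/- replicates left in red and B6.Sle1b replicates right in dark blue; bars on the columns are Wilson 95% intervals, which cover counting error only. Bcl6 shares run from 7.69% to 12.8% in Sle1b.IFNγR-/- and from 15.6% to 25.0% in B6.Sle1b.

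Levels of different genes were compared as mean scaled count per kilobase of GENCODE M21 exon sequence over the 6 libraries. Fas (18.0), Lmo2 (17.9) and Mef2b (16.3) were highest, followed by Gcsam (10.8), Gna13 (9.35), Bcl6 (7.48), Nuggc (6.91) and Eaf2 (6.30), with S1pr2 (3.21) and Mybl1 (2.61) lowest. Of the neighbours in this order, Eaf2 and S1pr2 were the pair whose means differed by more than the larger SD over libraries. In Sle1b.IFNγR-/- alone Fas led (20.5), ahead of Lmo2 (15.5) and Mef2b (14.3), and Bcl6 (4.22) was eighth; in B6.Sle1b alone Lmo2 (20.4) and Mef2b (18.3) were ahead of Fas (15.5), and Bcl6 (10.8) was the sixth. The Mef2b level includes fragments of 2310045N01Rik. Exon lengths of the authors' assembled loci were not used here, so the order depends on the annotation. Named loci took 17.5% to 27.0% of the scaled counts of a library. Some ribosomal protein genes were near 0, such as Rplp1 (5.25, 0 and 0 in Sle1b.IFNγR-/-), while others, such as Rps20, had 71.7, 58.4 and 50.3 there. How far background adds to the values was not tested, so the order is not read as amounts of transcript.

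The loci whose profile over the 6 libraries was nearest to that of Bcl6, by root mean square difference of centred log2(value + 1), were Rbm10 (0.158), Vdac3 (0.160) and Smc5 (0.192). Mybl1 followed at 0.207, the rank 6 of 19226 loci compared, and the other 8 genes lay at ranks from 677 (Gna13) to 15607 (Nuggc). Among the 10 genes, then, Mybl1 alone had a profile close to that of Bcl6. With 6 libraries such nearness is a description.

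Other genes of the germinal centre programme were read from lists. Over all loci, 58.1% had lower values in Sle1b.IFNγR-/-, or 48.3% without B6.Sle1b replicate 1. Of 19 tested genes of other germinal centre functions, 13 had lower and 6 higher values in Sle1b.IFNγR-/-, with a median log2 difference of -0.32, and 0 passed limma's adjusted p of 0.05 or an unadjusted p under 0.05. The elongation factor gene Ell2 had 46.3, 48.3 and 58.7 in Sle1b.IFNγR-/- and 200, 61.7 and 59.1 in B6.Sle1b, a difference that without B6.Sle1b replicate 1 was -0.24 in place of -0.81. Sema7a, a semaphorin gene, lay at 32.5 ± 5.80 in Sle1b.IFNγR-/- and 49.9 ± 18.0 in B6.Sle1b, and Ccnd3, the cyclin D of dividing germinal centre B cells, at 33.8 ± 11.2 in Sle1b.IFNγR-/- and 47.9 ± 9.65 in B6.Sle1b (SD, n = 3 each). Without B6.Sle1b replicate 1 the list stood at 9 lower and 9 higher, with a median of 0.05.

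Partners of Bcl6 and other B cell regulators had a median of -0.27, with 14 of 17 tested genes lower, and of 0.16 with 6 of 17 lower without B6.Sle1b replicate 1. The smallest p belonged to Pou2af1, a B cell coactivator gene, with 81.3, 84.3 and 68.3 in Sle1b.IFNγR-/- and 653, 66.6 and 136 in B6.Sle1b, to Irf4 and to Pax5, all 3 overlapping. Of 11 tested genes that Bcl6 is known to repress, 8 were lower in Sle1b.IFNγR-/-, with a median of -0.41, or 5 of 11 with a median of 0.05 without B6.Sle1b replicate 1. Among them Prdm1, the plasma cell regulator, had 35.0, 42.7 and 50.3 in Sle1b.IFNγR-/- and 86.6, 59.2 and 64.7 in B6.Sle1b, without overlap (log2 difference -0.70, SE 0.31, limma adjusted p = 0.9998).

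Prdm1, Irf4 and Pou2af1 are also used by plasma cells, and plasma cell markers moved in the same direction. All 6 tested markers, Prdm1 and Irf4 among them, had lower values in Sle1b.IFNγR-/-, as did 58.1% of all loci. The markers' median log2 difference was -1.32, and 4 of the 6 did not overlap between groups, against 5.19% of all loci in that direction. Among these 4, Creld2 and Derl3 averaged 3.96 and 7.76 in Sle1b.IFNγR-/- and passed the filter of 10 through B6.Sle1b alone. The counts and the median that include them are therefore not independent of the filter. The summed value of the 6 markers lay between 159 and 183 in Sle1b.IFNγR-/- and was 1028, 205 and 313 in B6.Sle1b replicates 1 to 3. Creld2, a chaperone gene of the endoplasmic reticulum, had 6.12, 3.37 and 2.40 in Sle1b.IFNγR-/- and 83.6, 11.5 and 21.6 in B6.Sle1b. Derl3, a gene of protein disposal from the endoplasmic reticulum, had 6.12, 12.4 and 4.79 in Sle1b.IFNγR-/- and 39.7, 20.6 and 16.9 in B6.Sle1b. The J chain gene Igj did not overlap either, but Sle1b.IFNγR-/- replicate 2 (52.8) and B6.Sle1b replicate 2 (53.4) were almost level. None of the 6 markers passed limma's adjusted p of 0.05. At an unadjusted limma p under 0.05, 4 were lower, against 2.08% of all loci. Without B6.Sle1b replicate 1, 5 of 5 tested markers were lower, against 48.3% of all loci, with a median of -0.54. In that setting 0 of them reached an unadjusted limma p under 0.05, and Creld2 was no longer tested. The marker Tnfrsf17 was at 0 in every library. The part of plasma cells in the values of Prdm1, Irf4 and Pou2af1 was not tested.

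For sphingosine phosphate and G13 signalling, 9 of 13 tested genes were lower, with a median of -0.18, or 3 of 13 with a median of 0.21 without B6.Sle1b replicate 1. Rgs1, a regulator of G protein signalling that acts on chemokine receptors of B cells, had the smallest p and lay at 35.6 ± 11.4 in Sle1b.IFNγR-/- and 50.7 ± 10.2 in B6.Sle1b (SD, n = 3 each). For the Fas pathway 6 of 8 tested genes were lower, with a median of -0.29, or 6 of 7 with a median of -0.15 without B6.Sle1b replicate 1. Fadd, the adaptor of Fas, lay at 32.5 ± 14.0 in Sle1b.IFNγR-/- and 45.2 ± 10.6 in B6.Sle1b, and the protease gene Casp8 at 58.4 ± 8.99 in Sle1b.IFNγR-/- and 91.0 ± 54.4 in B6.Sle1b (SD, n = 3 each). The Casp8 difference was -0.49 with all libraries and -0.04 without B6.Sle1b replicate 1. Bid, the death-signal gene cut by that protease, had the largest log2 difference of the list, 0.82 (SE 0.82), at 19.2, 8.99 and 9.58 in Sle1b.IFNγR-/- and 16.3, 1.64 and 7.50 in B6.Sle1b, with overlap. No gene of these lists passed limma's adjusted p of 0.05. An unadjusted p under 0.05 was reached by Prdm1.

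Markers of other cells that use these genes moved with the libraries too. T cells are a second source of Bcl6 and Fas. The summed value of 7 tested T cell and T follicular helper markers lay between 271 and 323 in Sle1b.IFNγR-/- and was 503, 234 and 362 in B6.Sle1b replicates 1 to 3, and the follicular helper gene Pdcd1 was at 0 in 5 of 6 libraries. Of these 7 markers 5 were lower in Sle1b.IFNγR-/-, among them Cd4 (log2 difference -0.56) and Sh2d1a (-0.61), with a median of -0.35, or 2 of 6 with a median of 0.05 without B6.Sle1b replicate 1. Relative to the mean log2 level of those 7 markers, Bcl6 lay at 0.40, -0.61 and -0.05 in Sle1b.IFNγR-/- and at 0.92, 0.81 and 1.06 in B6.Sle1b, without overlap. Il21, the helper cytokine gene of follicular helper T cells, had 39.3, 49.4 and 55.1 in Sle1b.IFNγR-/- and 31.6, 36.2 and 37.5 in B6.Sle1b, 1 of the 2 markers of this list with higher values (log2 difference 0.43, SE 0.32). Relative to 9 proliferation genes, Bcl6 lay at -0.36, -1.08 and -0.73 in Sle1b.IFNγR-/- and at -0.21, 0.04 and 0.64 in B6.Sle1b, without overlap. Relative to 27 ribosomal protein genes it lay at 0.38, -0.57 and -0.04 in Sle1b.IFNγR-/- and at -0.04, 0.63 and 1.24 in B6.Sle1b, with overlap. For the T cell, proliferation and ribosomal protein scales the share of all loci without overlap was not computed. All of these scales use the same Bcl6 values of the same libraries, so they do not count as separate evidence. The complement receptor gene Cr2, on B cells and follicular dendritic cells, had 116, 98.9 and 82.7 in Sle1b.IFNγR-/- and 66.2, 30.4 and 75.0 in B6.Sle1b (log2 difference 0.87, SE 0.36, limma adjusted p = 0.9998). The direction of Cr2 was not that of most markers: 8 of 10 B cell markers were lower in Sle1b.IFNγR-/-, with a median of -0.28, among them Cd79a (-1.10) and Cd72 (-0.53), and 4 of 6 follicular dendritic cell markers, with a median of -0.25, among them Clu (-0.76) and Mfge8 (-0.40). Without B6.Sle1b replicate 1 these counts were 4 of 10 and 2 of 6. All 8 myeloid markers were lower, with a median of -0.64, or 4 of 8 with a median of -0.05 without B6.Sle1b replicate 1.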

How the data were processed

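The deposited values are a signal in scaled fragments for each locus, with quartile scaling by the authors according to the table's name and, per the file headers, loci and transcripts named as in a Cufflinks assembly. The submitters' processing notes name CASAVA, TopHat2 2.0.9, Cufflinks 2.2.1 and GRCm38; annotation and strand setting were not given in the sources used here. Per the labels' protocols, TRIzol RNA was amplified with the NuGEN Ovation V2 kit. The 1530481 rows were collapsed to 426574 loci, with 0 loci whose repeated rows disagreed, and 18 other value columns and 6 status columns were not used. In each library 99.8% of positive values were whole multiples (within 0.01) of one step, and dividing by it gave the fragments quoted. The remaining values kept tests for counts from being used.

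The test was limma 3.58.1 (R 4.3.3) with its trend option on log2(value + 1), over named loci whose mean reached 10, with genotype as the only term and Benjamini-Hochberg adjustment over all of them. For single values, exact permutation tests were two-sided (scipy 1.17.1). Coordinates and exon lengths came from GENCODE M21 and promoters from RefSeq. The genes, lists and tests were chosen with earlier results of these data known. The rule for names took all 10 genes, up to 3 genes of smallest p per list and the 3 loci nearest to Bcl6, skipping predicted genes and small RNAs, and some genes it takes are not reported here; Il21, Cr2, Pdcd1 and the share of fragments were singled out or added after their values were seen. Alternatives were other scalings, filters and pseudocounts, robust limma, a replicate block and leaving out each library.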

Additional observations from a re-analysis of the deposited data

How the results depend on the processing

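All 10 genes stayed above limma's adjusted p of 0.05 in every alternative in which they were tested. The log2 difference of Bcl6 ranged from -1.26 to -0.64 over the other scalings, filters, pseudocounts, robust limma and the replicate block, and, leaving out each library in turn, from -1.65 to -0.99. Its limma adjusted p was 0.141 without B6.Sle1b replicate 2 and at its lowest 0.874 elsewhere. Without that library 1748 loci reached an unadjusted limma p under 0.05, against 596 with all 6 libraries. The fall in adjusted p was thus not particular to Bcl6. Relative to B cell markers the Bcl6 difference ranged from -1.03 to -0.78 over other settings. With single libraries left out it ranged from -1.21 to -0.87, where exact p could not go below 0.2. The count of genes called over all loci was 0 as deposited, 1 with total scaling, 3 with B cell marker scaling and 0 to 5 with 1 library left out, with 5 without B6.Sle1b replicate 1 and 5 without replicate 2.

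Scaling to ribosomal protein genes moved the median log2 difference of all loci from -0.08 to 0.51. It reversed Mef2b (0.42), Lmo2 (0.48), S1pr2 (0.38), Gna13 (0.049), Gcsam (0.0076) and Nuggc (0.23). B cell marker scaling, with a median of 0.16 over all loci, reversed Mef2b (0.068), Lmo2 (0.13) and S1pr2 (0.035), and total scaling reversed Lmo2 (0.020). Leaving out B6.Sle1b replicate 1 reversed Mef2b (0.31), Lmo2 (0.42), S1pr2 (0.011) and Nuggc (0.44). Without B6.Sle1b replicate 2 Eaf2 reversed (-0.10). Without Sle1b.IFNγR-/- replicate 2 S1pr2 reversed (0.036), and without Sle1b.IFNγR-/- replicate 1 Nuggc reversed (0.20). Over all such omissions Mef2b ranged from -0.63 to 0.31, Lmo2 from -0.68 to 0.42, Eaf2 from -0.10 to 0.35, S1pr2 from -0.59 to 0.036, Nuggc from -0.92 to 0.44, Mybl1 from -1.31 to -0.62 and Fas from 0.16 to 0.66. Mybl1 was -0.60 with a pseudocount of 10 and -0.39 with ribosomal protein scaling. The cause was not tested. Bcl6, Mybl1 and Fas kept their direction in every alternative in which they were tested.

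With a minimum mean of 50, Bcl6 and Gna13 alone among the 10 were tested. No pairing by replicate number was seen in the values, with correlations of same-numbered deviations of 0.0119, -0.0270 and -0.0113. With 3 libraries per group this does not settle whether same-numbered libraries shared a batch. With the replicate block the Bcl6 log2 difference was -1.25, and 0 genes were called, as without it. The tests planned for recovered whole reads were not run, because the values could not be turned into counts in full. Depth limits the lower genes, with 6 to 127 fragments per gene and library.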
